A study of Homo sapiens with 6 samples.

Results

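The collagen genes of H1155 cells were compared between libraries labelled WT and GFI1-KO, type by type. Members were the protein-coding rows of the deposited gene count table whose symbol is COL, a number, A and a number. The rule found 44 of the 58735 rows, which belong to 28 collagen types. H1155 is a neuroendocrine large-cell lung cancer line that expresses GFI1, a zinc finger transcription factor that mostly represses its targets. In the GFI1-KO cells, CRISPR/Cas9 with sgRNAs to different stretches of the GFI1 promoter region had been used, and clones, each grown from a single cell, had been isolated by flow cytometry for GFP. Cells of both groups were untreated and grown in DMEM with fetal bovine serum, and poly-T-selected RNA of 3 libraries per group was sequenced. How many clones the libraries came from, and whether they were separate cultures, is not stated in the sources used here. The p-values therefore measure the spread between these libraries.

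Collagens are proteins of the extracellular matrix whose alpha chains wind into a triple helix. Chains of a type assemble with each other in the endoplasmic reticulum, where prolines and lysines are hydroxylated, and the helix is then exported and, for many types, trimmed and cross-linked outside the cell. Fibrillar collagens make the fibers that bear load, type IV makes the network of basement membranes, type VI makes beaded filaments around cells, and FACIT collagens sit on the surface of fibers. Fibroblasts are the main source of fibrillar collagen in most tissues, but epithelial and tumor cells also make collagens, of which types IV, VI and VII border the cell surface or the basement membrane.

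Promoters of some of the genes that the results turn on are shown as examples: a region shared by the type IV pair, COL6A2 as the collagen gene with the highest level per length across libraries labelled WT, COL5A3 as a large increase and COL27A1 as a decrease. They are RefSeq sequences of build GRCh38.p14, cut to bases before the RefSeq transcription start that no exon of GENCODE 44 covers. The deposited annotation places COL4A1 up to 110307233, COL4A2 from 110305812 and COL6A2 from 46098097. There, all bases shown for the type IV pair lie within COL4A2 and some of them also within COL4A1. Some of the bases shown for COL6A2 likewise lie within that gene. Capitals mark the CCAAT box (CCAAT, on the other strand ATTGG), the GC box (GGGCGG, on the other strand CCGCCC) and the core of the GFI1 recognition sequence (AATC, on the other strand GATT), and CCAATC holds both a CCAAT box and that core. COL4A1 and COL4A2, the chains of the common type IV trimer, are transcribed away from each other on chromosome 13 from starts at 110307157 and 110307284, 127 bases apart, and the sequence shown for them lies between the starts, at chr13:110307158-110307257 (plus strand). The windows of COL6A2 (chr21:46097862-46098111, plus strand), COL5A3 (chr19:10010505-10010754, minus strand) and COL27A1 (chr9:114155287-114155536, plus strand) are the 250 bases before each start, and all are written 5′ to 3′ on the gene's strand.
COL4A1-COL4A2: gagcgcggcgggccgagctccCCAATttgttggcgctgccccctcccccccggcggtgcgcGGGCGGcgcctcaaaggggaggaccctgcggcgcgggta
COL6A2: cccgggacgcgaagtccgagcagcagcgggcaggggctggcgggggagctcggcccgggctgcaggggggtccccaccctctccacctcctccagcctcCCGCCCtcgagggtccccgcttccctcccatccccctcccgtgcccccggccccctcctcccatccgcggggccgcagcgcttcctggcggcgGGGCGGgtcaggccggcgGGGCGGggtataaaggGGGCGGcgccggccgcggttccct
COL5A3: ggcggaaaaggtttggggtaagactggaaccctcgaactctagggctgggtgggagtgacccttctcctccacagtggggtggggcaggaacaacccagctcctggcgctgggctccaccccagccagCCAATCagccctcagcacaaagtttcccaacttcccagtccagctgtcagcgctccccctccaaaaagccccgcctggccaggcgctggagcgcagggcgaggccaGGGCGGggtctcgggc
COL27A1: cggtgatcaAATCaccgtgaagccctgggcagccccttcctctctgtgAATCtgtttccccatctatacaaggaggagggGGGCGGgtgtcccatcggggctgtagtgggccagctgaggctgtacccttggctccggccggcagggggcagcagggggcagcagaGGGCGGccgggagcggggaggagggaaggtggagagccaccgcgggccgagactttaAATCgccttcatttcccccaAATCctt
The COL27A1 window holds 4 AATC cores and the COL5A3 window 1, while the windows of COL6A2 and of the type IV pair hold none. RefSeq windows from 250 bases before to 50 bases after the start were matched for 32 of the 44 members, 44 windows in all. The members not matched were COL14A1, COL1A1, COL1A2, COL20A1, COL22A1, COL2A1, COL3A1, COL5A2, COL6A1, COL6A5, COL8A1 and COL9A3. Of the windows, 31.8% held a CCAAT box, 54.5% a GC box and 61.4% an AATC core, against 34.6%, 45% and 69% of all 35116 windows. A match describes letters and not binding.

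The targeted gene was examined first. GFI1 had 157, 117 and 131 normalized counts across libraries labelled WT and 166, 178 and 160 in those labelled GFI1-KO. Its transcript was thus not reduced under the GFI1-KO label. The log2 fold change was 0.31 ± 0.12 (SE, n = 3 per group, adjusted p = 0.0273 by the quasi-likelihood test of edgeR, adjusted after Benjamini and Hochberg like all adjusted p-values below). With the correction described next this value was -0.01 (adjusted p = 0.964), so the group names below follow the labels and not the GFI1 transcript. The paper shows immunoblots of the GFI1 protein in H1155 and GFI1-KO cells, and the counts used here do not measure protein. Normalized counts are counts scaled for library size with edgeR's TMM factors, and a fold change is the level in libraries labelled GFI1-KO over that in libraries labelled WT.

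Fold changes of all genes moved with base composition. Over 17415 tested genes, Spearman's rho between the log2 fold change and the GC content of the transcript was 0.587, and it was 0.0259 after GC content and gene length had been corrected for within each library. This is a correlation across genes of the same 6 libraries. The tested collagen genes had a GC content between 41.9% and 66.8%, with a median of 54.8% against 49.1% for all tested genes, and each fold change is therefore given also with this correction where the text calls it GC-corrected. What part GC content has in the differences was not tested.

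Library totals lay between 14882914 and 17692882 counts. A working floor of 3 counts per library was set, although smaller counts occurred. It corresponded to between 0.17 and 0.202 CPM (counts scaled to the library total). These floors and the intervals on counts below cover counting error only. Reads were found for 40 members. COL11A1, COL21A1, COL23A1 and COL6A5 had no count in any of the 6 libraries, which allows up to 3 counts per library. The filter on low counts was passed by 31 members, of 21 types. Some passed only through the group where they were high, such as COL3A1, COL8A1, COL5A3, COL15A1 and COL4A1 under the GFI1-KO label. COL13A1 and COL25A1 passed only through the libraries labelled WT. The counts of called genes below include such members.

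Of the 31 collagen genes tested, 17 were higher and 11 lower in libraries labelled GFI1-KO (adjusted p up to 0.05), and COL10A1, COL12A1 and COL22A1 did not pass the test. Among all 17514 genes tested, 36.5% were higher and 35.9% lower, 72.4% in either direction, against 54.8% and 35.5% of the tested collagen genes. The median log2 fold change was 0.88 for the collagen genes and 0.00 for all genes, with a range from -2.15 to 5.75 in the collagen genes. With the GC correction 16 were higher and 11 lower and the median was 0.42, against backgrounds of 32.6% and 28%. A log2 fold change of at least 1 was called for 14 of the 31 genes and one of at most -1 for 6, where the backgrounds were 10.2% and 7.29%. Groups were free of overlap in normalized counts for 27 of the 31, against 74.4% of all genes. The classes below hold few genes, and their counts are given as a description beside the shares of all genes.

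Type VI collagen was the most abundant type in both groups, and each of its main chains was higher in the libraries labelled GFI1-KO. COL6A1, the alpha-1 chain (chr21:45981737-46005050), had 2926, 3131 and 3020 normalized counts across libraries labelled WT and 9777, 9992 and 9908 in those labelled GFI1-KO. All libraries labelled GFI1-KO lay above all labelled WT, and the log2 fold change was 1.71 ± 0.03 (SE, adjusted p = 7.38e-24), or 1.10 GC-corrected. COL6A2, the alpha-2 chain (chr21:46098097-46132849), had 3671, 3735 and 3765 against 8654, 8858 and 9072. Its groups did not overlap either, with a log2 fold change of 1.25 ± 0.03 (adjusted p = 1.89e-21), which was 0.59 with the correction. COL6A3, the long alpha-3 chain (chr2:237324003-237414375), whose C-terminal part is cut off as endotrophin, rose from 1007, 1180 and 1203 to 3982, 3841 and 3898 normalized counts. The groups were again apart, and its log2 fold change of 1.79 ± 0.05 (adjusted p = 2.05e-21) was 1.81 when GC-corrected.

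COL6A1 and COL6A2 lie next to each other on chromosome 21, and tested genes other than collagens within 1 Mb had a median log2 fold change of 0.12 (26 genes) around COL6A1 and 0.14 (24 genes) around COL6A2. The median of all 204 tested genes on the chromosome was -0.11. The alternative alpha-3-like chains were hardly seen: COL6A6 had 6, 7 and 19 counts against 5, 0 and 5 and did not pass the filter (log2 fold change -1.79, adjusted p = 0.00879 without the filter), and COL6A5 had none. All 3 tested type VI genes were called higher, against 36.5% of all tested genes, with a median log2 fold change of 1.71.

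Fibrillar collagens moved in both directions. Of 9 tested genes, 4 were higher and 5 lower, and the median log2 fold change was -0.37. Among all tested genes 36.5% were higher and 35.9% lower. The chains with the highest levels across libraries labelled WT fell. COL1A2, the alpha-2 chain of type I collagen, the main fiber of bone, skin and scar (chr7:94394561-94431232), had 2885, 2881 and 2969 normalized counts across libraries labelled WT and 1987, 2057 and 1979 in those labelled GFI1-KO. These did not overlap (log2 fold change -0.54 ± 0.04, adjusted p = 6.02e-13). COL1A1, which supplies the alpha-1 chains of the same trimer (chr17:50183289-50201632), was low throughout, at 113, 122 and 112 against 91.5, 90.0 and 80.0. It was lower in each library labelled GFI1-KO than in any labelled WT, by a log2 fold change of -0.41 ± 0.14 (adjusted p = 0.0133). That call was lost without GFI1-KO replicate 3 (-0.34, adjusted p = 0.0611), and the GC-corrected value was -0.90.

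COL5A1, the alpha-1 chain of type V collagen, which starts and limits type I fibers (chr9:134641774-134844843), had 1273, 1362 and 1345 normalized counts across libraries labelled WT against 1075, 977 and 1031. It fell with no overlap, by 0.37 on the log2 scale (SE 0.05, adjusted p = 2.58e-07) or 0.81 GC-corrected. COL2A1, the chain of cartilage collagen, fell from 306, 352 and 330 to 194, 164 and 169, and COL27A1, a cartilage-associated fibrillar chain, from 709, 813 and 755 to 359, 406 and 389. Each library labelled GFI1-KO lay below each labelled WT for both genes. Their log2 fold changes were -0.90 ± 0.10 (adjusted p = 4.3e-09) and -0.98 ± 0.07 (adjusted p = 1.27e-12), and with the correction -1.47 and -1.39.

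The fibrillar chains that rose were low across libraries labelled WT. COL3A1, the chain of the type III fibers of vessels and distensible tissue (chr2:188974320-189012746), had 2, 3 and 2 counts across libraries labelled WT and 129, 143 and 170 in those labelled GFI1-KO. That is at or below the floor of 3 counts per library in one group and far above it in the other. The ratio of the summed counts at equal depth was 56.5 (95% exact interval 27.2 to 141), and the fitted log2 fold change of 5.75 ± 0.30 (adjusted p = 2.87e-15) depends on the prior used at low counts. Its 10 tested neighbours within 1 Mb, collagen genes left out, had a median log2 fold change of -0.63.

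COL5A3, the least widespread type V chain (chr19:9959561-10010471), had 6.14, 11.1 and 4.20 normalized counts across libraries labelled WT and 157, 116 and 128 in those labelled GFI1-KO. The groups were far apart, with a log2 fold change of 4.22 ± 0.27 (adjusted p = 1.39e-13) and 3.66 GC-corrected. COL11A2, the alpha-2 chain of cartilage type XI, rose from 50.2, 38.7 and 38.8 to 87.7, 103 and 114 without overlap (log2 fold change 1.25 ± 0.19, adjusted p = 1.23e-06), or 0.69 GC-corrected. No read was counted for its partner COL11A1. COL5A2, the alpha-2 chain of type V, rose from between 38.8 and 49.1 to between 54.0 and 70.5 normalized counts (log2 fold change 0.50 ± 0.20, adjusted p = 0.0306). This call was lost with DESeq2 and without GFI1-KO replicate 1, GFI1-KO replicate 3 or WT replicate 3. The last fibrillar gene, COL24A1, had at most 4 counts in a library and was not tested.

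**Figure D1:**
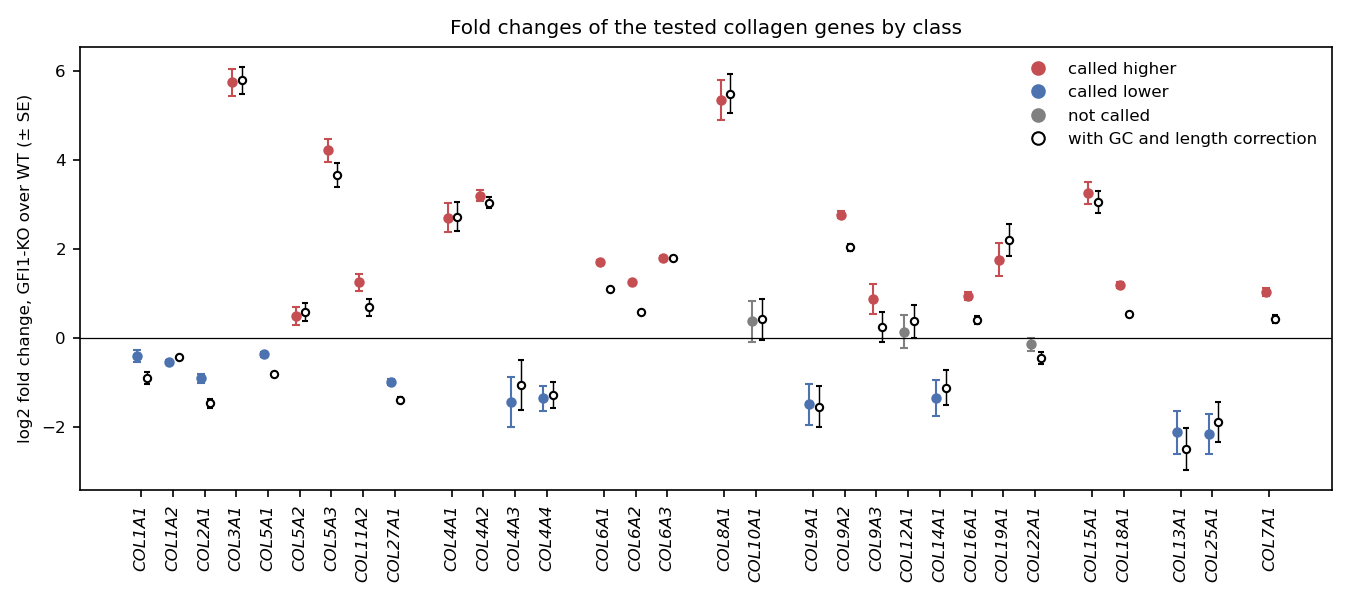
Log2 fold change (libraries labelled GFI1-KO over WT, n = 3 each) with its SE for the 31 tested collagen genes in the same order, from edgeR (filled, red for higher, blue for lower, gray for not called) and with GC and length correction (open). COL3A1 and COL8A1 had the largest values, 5.75 and 5.35, and COL9A3 and COL4A3 lost their calls with the correction.

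Type IV collagen, the network former of basement membranes, moved in both directions, with 2 of 4 tested chains higher and 2 lower. For all tested genes these shares were 36.5% and 35.9%. The common chains rose, and of the trimer of kidney and lung basement membranes COL4A4 fell, while the call of COL4A3 rested on single libraries. COL4A2 (chr13:110305812-110513209) had 77.8, 46.5 and 51.4 normalized counts across libraries labelled WT and 576, 502 and 544 in those labelled GFI1-KO. There was no overlap, and the log2 fold change was 3.20 ± 0.12 (adjusted p = 4.24e-18), with 3.04 GC-corrected. COL4A1, its neighbour across the promoter region shown above (chr13:110148963-110307233), rose from 6.14, 14.4 and 5.25 to 62.9, 59.7 and 45.2 (log2 fold change 2.70 ± 0.33, adjusted p = 3.85e-08). In the deposited annotation both genes overlap by 1422 bases on opposite strands, and without a known strand setting reads there cannot be assigned to either. The 8 tested genes other than collagens within 1 Mb had a median log2 fold change of -0.24.

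COL4A4 fell from between 36.7 and 64.2 to between 16.9 and 29.5 normalized counts (log2 fold change -1.35 ± 0.28, adjusted p = 0.00012). COL4A3, which starts next to it on chromosome 2 on the other strand, had 13, 8 and 16 counts across libraries labelled WT and 12, 1 and 2 in those labelled GFI1-KO. Its groups overlapped through GFI1-KO replicate 1, and its call (-1.44 ± 0.56, adjusted p = 0.0247) was lost with the GC correction (adjusted p = 0.114), with DESeq2 and without any of 4 libraries in turn (WT replicates 1 and 3, GFI1-KO replicates 2 and 3). COL4A3 is also overlapped by an antisense gene, AC097662.1, which had a mean count of 9.5 against 8.667, and 3.22% of its 50-base words are shared with other genes. Without GFI1-KO replicate 1 its log2 fold change was -3.09. The X-linked chains COL4A5 (5, 3 and 1 counts against 6, 9 and 10) and COL4A6 (2, 1 and 0 against 7, 3 and 7) were not tested.

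Among the FACIT collagens, which decorate fibers, 4 of 8 tested genes were higher and 2 lower, and the median log2 fold change was 0.51. That is 50% and 25%, where all tested genes had 36.5% and 35.9%. COL9A2, the alpha-2 chain of type IX, which coats type II fibers in cartilage (chr1:40300487-40317813), had 126, 144 and 143 normalized counts across libraries labelled WT and 938, 939 and 937 in those labelled GFI1-KO. It was far higher in every one of the latter, by a log2 fold change of 2.77 ± 0.08 (adjusted p = 3.54e-21), or 2.04 GC-corrected. The other type IX chains did not move with it to the same extent. COL9A3 had 18.4, 25.5 and 7.35 against 37.2, 25.6 and 31.1, and its log2 fold change of 0.88 ± 0.34 (adjusted p = 0.0233) was 0.26 when GC-corrected (adjusted p = 0.532). The COL9A3 call was also lost with DESeq2 and without WT replicate 3 or GFI1-KO replicate 1. COL9A1 fell from 18, 10 and 18 counts to 10, 6 and 2 (log2 fold change -1.49 ± 0.46, adjusted p = 0.00578), a call that was lost without GFI1-KO replicate 3.

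COL16A1, a FACIT of skin and cartilage, rose from 190, 185 and 169 to 342, 364 and 345 normalized counts. The groups did not overlap (log2 fold change 0.95 ± 0.09, adjusted p = 4.36e-10), and the GC-corrected value was 0.40. COL22A1, found at tissue junctions such as that of muscle and tendon, had 146, 128 and 104 against 117, 122 and 104. It overlapped and did not pass the test (log2 fold change -0.14 ± 0.14, adjusted p = 0.382), but was called lower with the GC correction (-0.45, adjusted p = 0.00804). Among the low FACIT genes, COL14A1 fell from between 15.4 and 27.7 to between 3.81 and 12.2 normalized counts (log2 fold change -1.35 ± 0.40, adjusted p = 0.00387). COL19A1 rose from between 4.20 and 14.4 to between 29.2 and 31.3 (1.76 ± 0.37, adjusted p = 0.000117), with an overlap of 666 bases on the other strand with LMBRD1, which had a mean of 636 counts. COL12A1 did not pass the test (0.14 ± 0.37, adjusted p = 0.738), COL20A1 had at most 3 counts in a library, and COL21A1 had none.

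Both multiplexins, basement membrane collagens with a proteoglycan character, rose. COL15A1 (chr9:98943179-99070792) had 7.17, 14.4 and 10.5 normalized counts across libraries labelled WT and 103, 105 and 101 in those labelled GFI1-KO. It was apart in every library, with a log2 fold change of 3.26 ± 0.24 (adjusted p = 4.19e-12) and 3.05 GC-corrected. COL18A1, whose C-terminus is released as endostatin (chr21:45405137-45513720), rose from 327, 329 and 302 to 743, 697 and 759, without overlap. Its log2 fold change of 1.20 ± 0.07 (adjusted p = 1.66e-14) was 0.53 with the correction. Its counts are uncertain, since 15.8% of its transcript sequence, in words of 50 bases, is also found in another gene, mainly SLC19A1 on the other strand of the same locus.

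COL7A1, the anchoring fibril collagen that ties the epithelial basement membrane to the stroma (chr3:48564073-48595267), had 196, 241 and 223 normalized counts against 410, 480 and 460. All libraries labelled GFI1-KO were higher (log2 fold change 1.04 ± 0.09, adjusted p = 7.36e-11), or 0.43 with the GC correction. COL8A1, a short-chain network collagen of vessel walls and the cornea, had 0, 3 and 1 counts across libraries labelled WT and 69, 57 and 73 in those labelled GFI1-KO. The ratio of its summed counts was 44.5 (95% exact interval 17.1 to 165), and the fitted log2 fold change was 5.35 ± 0.45 (adjusted p = 3.52e-11). That value was 4.78 without WT replicate 1 and 6.61 without WT replicate 2, the library with the most counts of its group. COL10A1, the collagen of hypertrophic cartilage, had between 5 and 12 counts in every library and was not called (adjusted p = 0.473). It lies within NT5DC1 on the other strand, and its transcripts share none of their 50-base words with another gene.

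Of the 4 transmembrane collagens, the 2 tested were lower, as were 35.9% of all tested genes. Both passed the filter only through the libraries labelled WT, where they were higher, so this count is a description of the genes tested. COL13A1, found at cell adhesions and the neuromuscular junction, went from 12, 12 and 16 counts to 4, 3 and 3 (log2 fold change -2.12 ± 0.48, adjusted p = 0.000345). COL25A1, a neuronal collagen, went from 22, 13 and 18 to 3, 6 and 4 (log2 fold change -2.15 ± 0.44, adjusted p = 0.000106). Neither overlapped between the groups, though both were near the floor in the libraries labelled GFI1-KO. COL17A1, of the hemidesmosome, had 2, 0 and 5 counts across libraries labelled WT and 10, 9 and 7 in those labelled GFI1-KO, without overlap. It did not pass the filter, and without the filter it was called higher (log2 fold change 1.70, adjusted p = 0.0418). COL23A1 had no counts. COL26A1 (5, 6 and 7 against 11, 10 and 16), COL8A2 (at most 2) and COL28A1 (at most 2) also stayed under the filter.

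Per length, the summed level of all collagen genes was 120 ± 2.77 FPKM (SD, n = 3) across libraries labelled WT and 275 ± 3.10 in those labelled GFI1-KO. FPKM came from the counts, the deposited gene length, which covers all annotated exons, and the library total. Type VI made up 66.4% ± 0.241 of the sum across libraries labelled WT and 80.8% ± 0.302 in those labelled GFI1-KO, as its summed level went from 79.9 ± 1.92 to 222 ± 3.22 FPKM. Without type VI the sum went from 40.5 ± 0.907 to 52.8 ± 0.467 FPKM. The shares of type I (13.8% to 4.13%) and type V (6.33% to 2.63%) were lower in the libraries labelled GFI1-KO, and that of type IX was higher (1.93% to 5.02%). Type XXVII went from 2.73% to 0.601% and type II from 2.49% to 0.577%, while type XVIII had 1.89% and 1.88%. These shares are parts of one sum and are given as a description. FPKM here and below are not GC-corrected. That correction took the log2 fold change of COL6A1 from 1.71 to 1.10 and of COL6A2 from 1.25 to 0.59. For COL6A3 the values were 1.79 and 1.81.

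**Figure D2:**
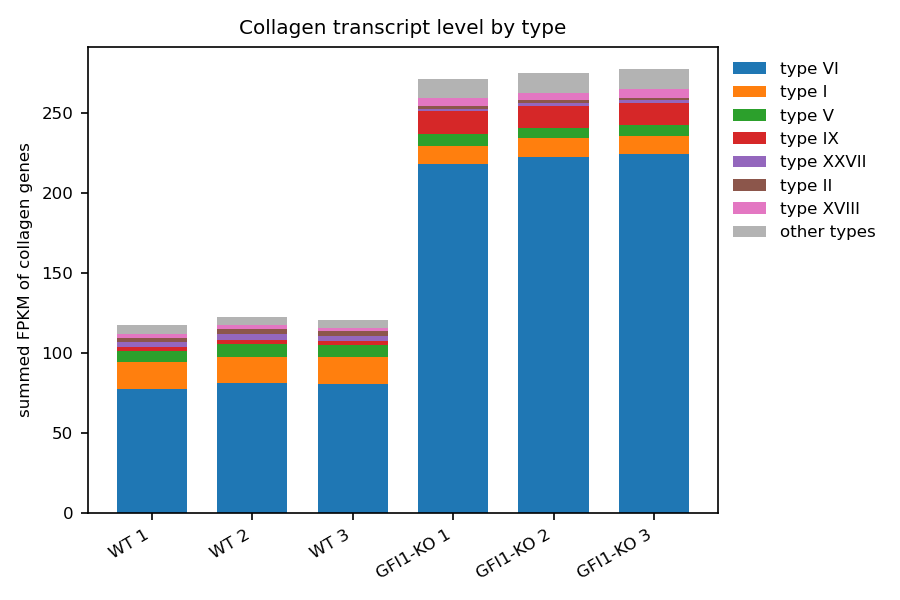
Summed FPKM (not GC-corrected) of the collagen genes in each library, stacked by type, for 3 libraries labelled WT and 3 labelled GFI1-KO. The type VI part rose from 79.9 to 222 FPKM on average, and the type I part fell from 16.6 to 11.3.

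By level per length, the order across libraries labelled WT was COL6A2 (42.0 FPKM), COL6A1 (34.4), COL1A2 (15.8), COL5A1 (7.19) and COL6A3 (3.49). In the libraries labelled GFI1-KO it was COL6A1 (111 FPKM), COL6A2 (98.7), COL9A2 (13.3), COL6A3 (11.9), COL1A2 (10.8) and COL5A1 (5.51). COL9A2 had ranked 9 across libraries labelled WT, with 1.98 FPKM. COL4A2 moved from rank 18 (0.184 FPKM) to rank 10 (1.68 FPKM).

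Ratios of chains that share a trimer were tested for 6 pairs, and none had an adjusted p of at most 0.05. Groups were apart in 3 of them and overlapped in the other 3. The FPKM ratio of COL6A1 to COL6A2 was 0.819 ± 0.0226 across libraries labelled WT and 1.13 ± 0.0214 in those labelled GFI1-KO, with no overlap. The COL5A1 to COL5A2 ratio fell from 19.8 ± 2.97 to 10.8 ± 1.06 and that of COL9A3 to COL9A2 from 0.109 ± 0.0570 to 0.0290 ± 0.00540, again without overlap. Each of these had p = 0.1 in a two-sided exact permutation test of the log2 ratio (n = 3 per group, adjusted p = 0.2 over 6 ratios), the smallest p that 3 against 3 libraries can give. COL6A3 to COL6A1 (0.102 and 0.108, exact p = 0.3) and COL1A1 to COL1A2 (0.0451 and 0.0493, exact p = 0.2) overlapped between the groups. COL4A1 to COL4A2 had ratios of 0.103, 0.405 and 0.134 across libraries labelled WT and 0.143, 0.156 and 0.109 in those labelled GFI1-KO (exact p = 0.9), and its difference changed sign without WT replicate 2. The pairs COL4A3 and COL4A4, COL4A5 and COL4A6, and COL11A1 and COL11A2 were too low to test. With the length of a single canonical transcript per gene, chosen after the data had been seen, the ratios were 0.666 and 0.915 for COL6A1 to COL6A2, and 0.0341 and 0.0372 for COL1A1 to COL1A2, so type I alpha-1 transcripts stayed far below alpha-2 on either length.

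**Figure D3:**
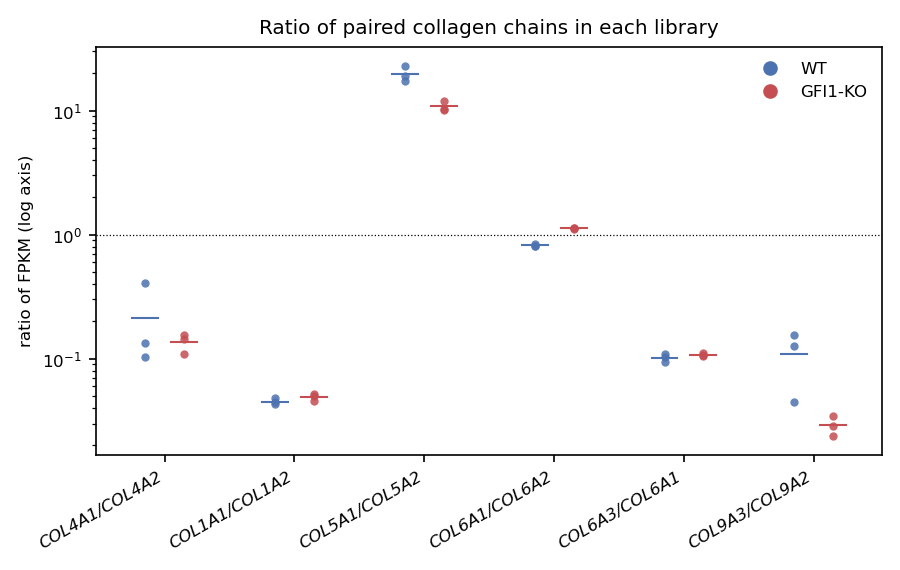
Ratio of FPKM (log axis) of chains that share a trimer, in each library labelled WT (blue) or GFI1-KO (red), with lines for group means. The groups are apart for COL5A1/COL5A2, COL6A1/COL6A2 and COL9A3/COL9A2 and overlap for the others.

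The machinery that modifies, folds and trims collagen was taken as a list of 37 genes, of which 35 were tested, 19 were higher and 10 lower, at a median log2 fold change of 0.35 (20 higher, 7 lower and a median of 0.22 with the GC correction). That is 54.3% higher and 28.6% lower, where all tested genes had 36.5% and 35.9%. With the GC correction the shares were 57.1% and 20%, against 32.6% and 28% of all genes. The groups within this list are small, and their counts are given as a description beside the background without the correction. Of 15 hydroxylases and glycosyltransferases, 11 were higher and 2 lower. PLOD2, the lysyl hydroxylase of the telopeptides that sets the type of cross-link, fell from 1614, 1499 and 1583 to 607, 621 and 674 normalized counts (log2 fold change -1.30 ± 0.05, adjusted p = 1.61e-17), or -0.64 GC-corrected. PLOD1, which hydroxylates lysines of the helix, rose by a log2 fold change of 0.72. P3H3 and P3H4, partners of PLOD1, rose by 0.91 each on the log2 scale, and COLGALT1, which adds galactose to hydroxylysine, by 0.67. PPIB, a prolyl isomerase, rose by the same 0.67, but 24.1% of its words are shared with another gene. With the GC correction these increases lay between 0.26 and 0.36. PLOD3, which both hydroxylates and glycosylates lysine, changed sign with it, from 0.35 to -0.13.

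Among chaperones and export factors, 2 of 8 tested genes were higher and 4 lower. SERPINH1 (HSP47), the collagen-specific chaperone that binds the triple helix, had 332, 322 and 357 normalized counts across libraries labelled WT and 1649, 1676 and 1592 in those labelled GFI1-KO. It was higher in every one of the latter (log2 fold change 2.28 ± 0.06, adjusted p = 7.72e-22), or 1.82 GC-corrected. FKBP10, a prolyl isomerase that acts with it on type I procollagen, rose from 277, 294 and 260 to 981, 1171 and 1063 (1.95 ± 0.07, adjusted p = 3.03e-18), or 1.44. FKBP7 had a log2 fold change of -0.89, or -0.40 GC-corrected. TMEM38B, an ion channel of the endoplasmic reticulum, and MIA3 and MIA2, which load collagen into carriers, were lower by log2 fold changes of -0.65, -0.40 and -0.28, and these were -0.03, 0.00 and 0.30 with the correction.

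Of 7 tested propeptide processing genes, 3 were higher and 2 lower. ADAMTS14, an N-propeptidase of fibrillar procollagens, fell from 659, 588 and 534 to 105, 124 and 102 normalized counts (log2 fold change -2.43 ± 0.10, adjusted p = 1.78e-17). BMP1, the C-propeptidase, rose from 506, 571 and 490 to 989, 993 and 1066 (0.96 ± 0.06, adjusted p = 2.31e-13), or 0.47 GC-corrected. PCOLCE, which enhances the action of BMP1, rose by 0.83 on the log2 scale (0.14 GC-corrected), with 12.7% of its words shared with another gene. Both groups of libraries were apart for these genes. All 5 cross-linking lysyl oxidases passed the test, 3 as higher and 2 as lower. LOXL2, the most abundant of them per length, rose by 0.78 (0.32 GC-corrected), and LOXL4 by 0.65 (0.22 GC-corrected, adjusted p = 0.213). LOXL3 had -0.93 (-1.33 GC-corrected), with 19.8% of words shared, and LOXL1 -0.16, or -0.85 GC-corrected (adjusted p = 3.34e-12).

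Collagen receptors, a list of 13 of which 11 were tested, had 6 higher and 4 lower genes and a median log2 fold change of 0.10. These are 54.5% and 36.4%, against 36.5% and 35.9% of all genes. ADGRG1 (GPR56), an adhesion receptor that binds type III collagen, had 786, 759 and 731 normalized counts across libraries labelled WT and 59.1, 63.5 and 45.2 in those labelled GFI1-KO (log2 fold change -3.76 ± 0.10, adjusted p = 2.26e-21). COL3A1, the gene of that ligand, was higher in the same libraries. MRC2, the endocytic receptor that takes up collagen for degradation, rose from 362, 390 and 347 to 3067, 3039 and 3084 (3.06 ± 0.05, adjusted p = 5.62e-26), or 2.49 GC-corrected. Among integrin subunits, ITGA2 and ITGA11 rose by 0.84 and 0.42 on the log2 scale. ITGA1 had -0.76, but -0.10 with the correction (adjusted p = 0.304) and 13.2% of words shared. ITGB1, the common beta subunit, went from -0.11 to 0.39, and the collagen kinase receptor DDR1 from 0.45 to -0.07, so for both the direction depended on the correction.

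**Figure D4:**
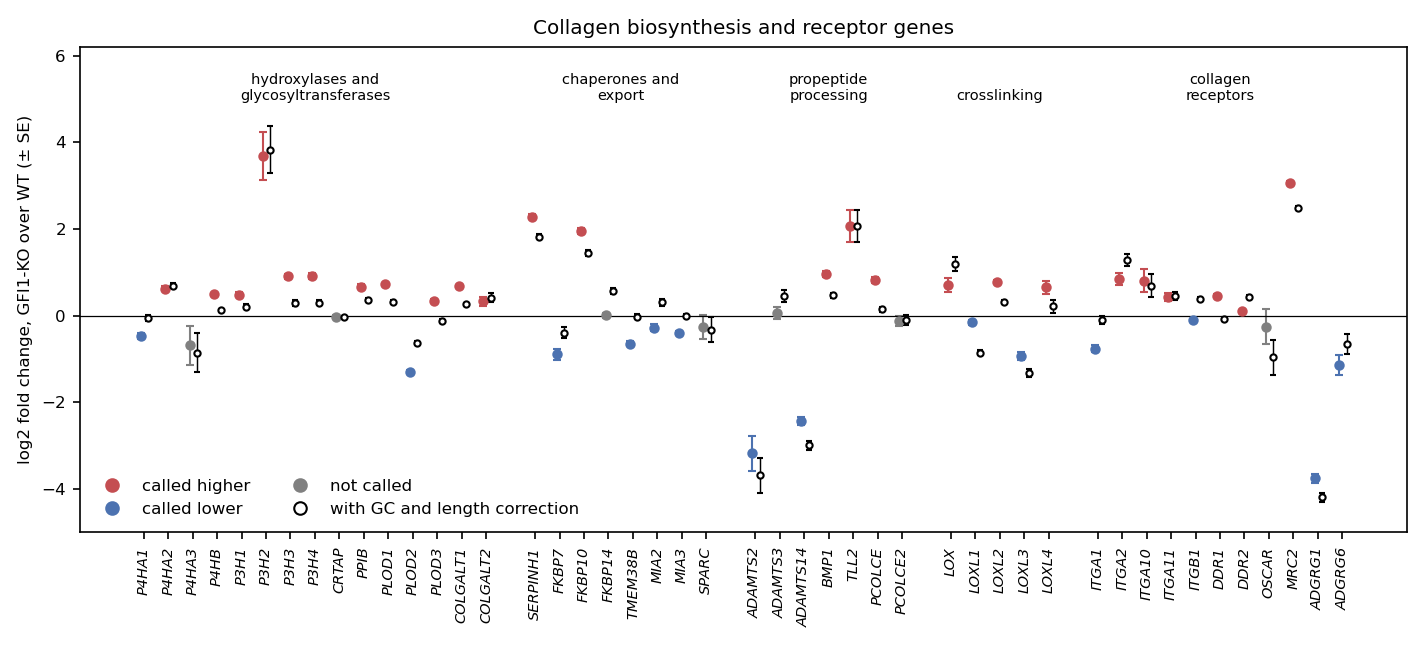
Log2 fold change (libraries labelled GFI1-KO over WT) with its SE for tested collagen biosynthesis and receptor genes, from edgeR (filled, colored by call) and with GC and length correction (open). SERPINH1 (2.28) and MRC2 (3.06) rose and ADAMTS14 (-2.43) and ADGRG1 (-3.76) fell.

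Markers of other cell types were summed per library, and their part in the results was not tested. Of 8 fibroblast markers, 2 had at least 3 counts in every library, DCN was at 0 in all, and their summed level was 1.37 to 1.44 FPKM across libraries labelled WT and 0.619 to 0.669 in those labelled GFI1-KO. PDGFRB fell from 136, 128 and 135 counts to 17, 15 and 15 (log2 fold change -3.24). PDGFRA rose from 1, 2 and 0 counts to 17, 16 and 14 (3.66). ACTA2 rose from 7, 4 and 4 to 19, 22 and 19 (1.82), and both were low in every library. The 9 neuroendocrine markers summed to 430 to 439 FPKM and 472 to 474 FPKM. Epithelial markers summed to 41.4 to 44.4 FPKM and 44.6 to 49.9 FPKM, mostly from KRT8 and KRT18, while EPCAM (log2 fold change -2.23, adjusted p = 8.06e-08) and CDH1 (-2.31, adjusted p = 5.29e-05) fell. Leukocyte and endothelial markers summed to 3.53 to 3.97 FPKM and 1.79 to 2.11 FPKM, with CD3E at 0, and most of this came from PECAM1, which had 478, 464 and 422 normalized counts against 212, 200 and 215 (log2 fold change -1.12, adjusted p = 3.47e-12). In bulk RNA, more cells that express a gene and more transcript per cell cannot be told apart.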

How the data were processed

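Poly-T-selected RNA of H1155 cells was compared between 3 libraries labelled WT and 3 labelled GFI1-KO. The authors deposited raw counts per gene with gene length, start and end in bases from their annotation (GRCh38). The paper's methods name Hisat2 and featureCounts, whereas the submitters' processing notes name Bowtie2 and HTSeq, with build hg38. Gene annotation, strand setting and treatment of multiply matching reads are not given in the sources used here.

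All 58735 genes entered edgeR 4.0.16 in R 4.3.3 (filterByExpr, TMM factors, quasi-likelihood test, Benjamini-Hochberg adjustment over 17514 genes, adjusted p of at most 0.05, no fold change minimum). SE was taken from the fold change and the F statistic. The paper used DESeq2, which was run here (1.42.0) as an alternative. Normalized counts are counts over the TMM effective library size, multiplied by its mean. FPKM used library totals. The GC and length correction used per-library offsets from natural splines (5 degrees of freedom). GC content came from GENCODE 44, which holds 58207 of the rows and all 44 members. Chain ratios were compared by exact permutation tests. A gene was called uncertain where over 10% of its 50-base words occur in other genes. Intervals are 95% and exact.

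Members and lists were chosen with earlier results of these data known. Values per library are given for members with a mean of at least 100 normalized counts in either group, for chains of a ratio and for some low members, the latter chosen after their values were seen. In the other lists, up to 6 called genes with the largest change at that level were named, and others (PLOD3, ITGB1, the markers) after their values were seen. The steps were tested on simulated data. Alternatives were other scalings and filters, the replicate number as a block, the GC correction, and each library left out. The permutation tests were run in R. Python 3.11.15 with scipy 1.17.1, pandas 2.3.3, matplotlib 3.10.9 and numpy 2.4.6 served for the intervals of count ratios, tables and plots.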

Additional observations from a re-analysis of the deposited data

How the results depend on the processing

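Of 459 comparisons of a result with an alternative, 445 were rated the same. For fold changes this meant the same direction and side of the threshold, while counts of called genes could shift somewhat. Chain ratios, with a smallest p of 0.1, could not pass the threshold in any setting. Tested collagen genes under 100 normalized counts in both groups were not compared one by one here, and calls lost among them are given above. The collagen counts of 17 higher and 11 lower became 10 and 6 of 17 tested with at least 10 counts in every library, a filter that tests fewer genes. Of all 15359 genes tested with that filter, 5796 were higher and 5781 lower. With 1 library left out, the collagen counts lay between 15 and 17 higher and between 8 and 11 lower, given as a description. No collagen gene was called in the opposite direction under any alternative run. GFI1, at 0.31 (adjusted p = 0.0273, not called at 0.01), had a log2 fold change of 0.31 with DESeq2 (adjusted p = 0.072), of -0.0074 with the GC correction and -0.0023 with that correction and the block, with a range from 0.21 to 0.43 with 1 library left out. Its call was lost without WT replicate 2, WT replicate 3 or GFI1-KO replicate 2. The log2 difference of the COL4A1/COL4A2 ratio, -0.40, ranged from -0.79 to 0.19 with 1 library left out, the latter without WT replicate 2. The cause was not tested for either.

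The replicate numbers did not pair the libraries: deviations from the group means correlated at -0.00355, 0.0166 and 0.0235 between same-numbered libraries. With the replicate number as a block, 17 collagen genes were higher and 11 lower, GFI1 had 0.32, and 12573 genes were called in place of 12680, 12528 of them shared. The block changed no call of a collagen gene. Depth limits the 13 untested members, none of which exceeded 19 counts in a library.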

Other observations

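No row named after a collagen gene that is not protein coding passed the filter on low counts. The largest count among them was 4, for COL5A1-AS1, the antisense gene of COL5A1, with 2, 2 and 4 counts under the WT label and 1, 1 and 0 under the GFI1-KO label.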
